A study of Mus musculus with 6 samples.

Results

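The 10 genes described here encode the heavy chains, the light chain, the peptide loading machinery and the transactivator of major histocompatibility complex (MHC) class I. They are H2-K1, H2-D1, H2-Q7, H2-M3, H2-T23, B2m, Tap1, Tap2, Tapbp and Nlrc5, and they were taken by symbol from the 31426 genes of the count table, where all 10 were present and passed the filter on low counts. RNA-seq was performed on hepatic CD11c+ cells of male C57BL/6 mice kept for 14 weeks on a high-fat diet (HFD). The labels give an age of 4 to 8 weeks, which cannot be the age at collection after 14 weeks of diet. The Atg5 CD11cKO group holds 3 libraries, numbered 25, 26 and 27, from mice with a floxed Atg5 gene on both alleles and Cre recombinase under the Itgax (CD11c) promoter, so that Atg5, an autophagy gene, is deleted in the cells that express this driver. The WT group holds 3 libraries, numbered 21, 22 and 23, from floxed littermates used as wild type, so the floxed allele and the HFD were common to both groups. CD11c marks dendritic cells and also many macrophages, and the cells were enriched on CD11c beads, or sorted as live CD45+ CD11c+ cells in another account of the methods, so a library can hold several cell types.

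MHC class I molecules present short peptides, cut from proteins inside the cell, to CD8+ T cells, and they are also ligands of receptors on natural killer cells. A heavy chain pairs with the light chain beta-2-microglobulin (B2m) in the endoplasmic reticulum, where tapasin (Tapbp) holds it next to the peptide transporter made of Tap1 and Tap2 until a peptide is bound. NLRC5, a member of the NOD-like receptor family, drives transcription of class I genes together with factors bound to an S, X and Y box module in their promoters, and kappaB sites and interferon-stimulated response elements (ISRE) lie in the same region of classical class I genes.

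In the assembly mm10 used for the deposited counts, 8 of the 10 genes lie on chromosome 17, within and beside the MHC. Tapbp spans positions 33915899 to 33929292, H2-K1 33996017 to 34000347, Tap1 34187553 to 34197225 and Tap2 34203527 to 34216321 of that chromosome. Further along it, H2-D1 spans 35262730 to 35267499, H2-Q7 35439155 to 35443773, H2-T23 36029773 to 36032855 and H2-M3 37270220 to 37274484. B2m lies on chromosome 2 from 122147686 to 122153083 and Nlrc5 on chromosome 8 from 94434356 to 94527272.

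Promoters were looked up in RefSeq for the assembly GRCm38.p6, as 250 bases before and 50 after the gene start, and 8 of the 10 genes were matched, all but Tap2 and Nlrc5. The RefSeq start is not always that of the gene spans above, which come from the count table, and it lies 364 bases inside the span of H2-D1, 3579 bases inside that of Tapbp and 0 to 14 bases inside those of the other 4 genes shown. The 6 shown are those of the 4 heavy chain genes that share a run of letters, of the light chain gene, and of Tapbp, whose level differed between the groups in the opposite direction to the other 9 genes. Capitals mark, on either strand, the Y box letters CCAAT, the X2 box letters TGACGC or TGACGT, the strict kappaB letters (GGGA and CC with 4 bases between them), the ISRE core (GAAA and GAAA with 2 bases between them), and the shared run GTTTCACTTCT. In H2-M3 the kappaB match and a Y box match overlap.
H2-K1, chr17:34000298-34000597, minus strand: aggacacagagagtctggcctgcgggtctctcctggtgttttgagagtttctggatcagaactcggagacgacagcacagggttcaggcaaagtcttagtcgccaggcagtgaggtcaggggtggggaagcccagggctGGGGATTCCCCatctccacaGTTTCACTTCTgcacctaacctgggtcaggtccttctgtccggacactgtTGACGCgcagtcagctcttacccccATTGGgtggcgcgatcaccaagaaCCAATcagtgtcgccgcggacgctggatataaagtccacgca
H2-D1, chr17:35262844-35263143, plus strand: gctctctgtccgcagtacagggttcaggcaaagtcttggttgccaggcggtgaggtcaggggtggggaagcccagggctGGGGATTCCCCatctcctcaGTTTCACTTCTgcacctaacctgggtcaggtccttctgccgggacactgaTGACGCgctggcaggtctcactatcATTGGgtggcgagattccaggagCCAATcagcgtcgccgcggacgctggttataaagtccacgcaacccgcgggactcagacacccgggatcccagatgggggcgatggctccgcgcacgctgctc
H2-Q7, chr17:35438905-35439204, plus strand: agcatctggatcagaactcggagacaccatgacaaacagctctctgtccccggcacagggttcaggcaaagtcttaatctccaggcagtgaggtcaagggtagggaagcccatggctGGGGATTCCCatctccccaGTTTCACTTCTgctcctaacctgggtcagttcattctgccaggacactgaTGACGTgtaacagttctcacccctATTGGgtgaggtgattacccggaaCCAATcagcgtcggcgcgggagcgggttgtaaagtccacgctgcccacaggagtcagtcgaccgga
H2-M3, chr17:37269984-37270283, plus strand: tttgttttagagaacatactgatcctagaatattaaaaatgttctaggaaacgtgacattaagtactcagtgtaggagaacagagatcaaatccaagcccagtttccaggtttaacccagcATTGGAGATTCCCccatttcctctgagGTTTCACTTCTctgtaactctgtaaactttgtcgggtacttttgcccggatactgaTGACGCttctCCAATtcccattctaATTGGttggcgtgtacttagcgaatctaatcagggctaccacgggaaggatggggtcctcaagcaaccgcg
B2m, chr2:122147437-122147736, plus strand: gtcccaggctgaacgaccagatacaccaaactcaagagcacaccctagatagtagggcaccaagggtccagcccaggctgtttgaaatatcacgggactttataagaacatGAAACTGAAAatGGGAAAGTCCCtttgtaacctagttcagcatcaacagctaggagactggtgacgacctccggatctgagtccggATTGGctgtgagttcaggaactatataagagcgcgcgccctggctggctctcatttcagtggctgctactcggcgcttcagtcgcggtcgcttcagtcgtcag
Tapbp, chr17:33919228-33919527, plus strand: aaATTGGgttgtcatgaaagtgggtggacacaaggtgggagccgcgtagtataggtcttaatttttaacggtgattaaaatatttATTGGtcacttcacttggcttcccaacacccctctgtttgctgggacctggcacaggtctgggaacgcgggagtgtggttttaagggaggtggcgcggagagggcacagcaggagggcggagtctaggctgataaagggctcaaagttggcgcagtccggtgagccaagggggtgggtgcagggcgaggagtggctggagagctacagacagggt

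The letters GTTTCACTTCT stood in the promoters of H2-K1, H2-D1, H2-Q7 and H2-M3 and in 19 of all 32851 promoters (0.0578%), a run chosen after the promoters were seen. H2-K1, H2-D1 and H2-Q7 further share the run ACAGGGTTCAGGCAAAGTCTT, printed in lower case, which 6 of all promoters held (0.0183%). The same 4 heavy chain promoters held the X2 letters, which were present in 14.0% of all promoters. The strict kappaB letters were present in those 4 and in B2m, against 20.7% of all promoters, and the looser letters, GGG and CC with 5 bases between them, in these 5 and in Tap1, against 50.8% of all promoters. The Y box letters were present in all 8 promoters and in 37.4% of all promoters. The exact ISRE core letters were found in B2m and H2-T23 and in 3.44% of all promoters. In B2m their first base lay at -139, counted from the start. Read on its other strand, the shared run GTTTCACTTCT resembles these letters without matching them. The lack of an exact match therefore does not show that the other promoters lack an ISRE. In H2-K1 the strict kappaB match on the plus strand, the shared run, the X2 box and the Y box on the minus strand began at -110, -91, -41 and -16, and in H2-D1 at -170, -151, -101 and -76. The spacing between these matches was the same in both genes, so the positions differ only in where the annotated start lies. H2-K1 has 2 starts in the table, and the letters refer to the first. A match is a description of letters and shows no binding.

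Sequencing depth was similar in all libraries, with totals of 31103044 to 32699529 estimated counts in the Atg5 CD11cKO libraries and 31064570 to 34034675 in the WT libraries. Atg5 itself stood at 21.3, 21.0 and 20.8 CPM (counts per 1000000 counts of the library, with library sizes scaled by TMM) in Atg5 CD11cKO 25, 26 and 27, against 54.0, 49.8 and 22.1 CPM in WT 21, 22 and 23. The library labelled WT 23 was therefore at the Atg5 level of the Atg5 CD11cKO libraries and against its label. It also stood with them across the transcriptome, since its mean chi-square per gene was 5.93 to 7.39 against the 3 Atg5 CD11cKO libraries and 203 against WT 21 and WT 22, where 1 is sampling noise. No libraries agreed within sampling noise. Results below are given with all 6 libraries as labelled and without the library labelled WT 23. Itgax, which encodes CD11c, was at 464 to 492 CPM in the Atg5 CD11cKO libraries and at 432, 444 and 472 CPM in WT 21, 22 and 23, so the enriched marker was present in every library. Its log2 fold change was 0.14 against WT 21 and WT 22 (edgeR, adjusted p = 0.0149). With all 6 libraries the Itgax value was 0.09 (adjusted p = 0.536). Neither the labels nor the methods say which mouse a library came from, so the p-values measure the spread between libraries, which may be technical.

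The data show lower transcript levels of 9 of the 10 genes in Atg5 CD11cKO cells than in WT 21 and WT 22, with the widest differences in H2-Q7 and Tap1, and a higher level of Tapbp. With all 6 libraries as labelled, none of the 10 genes passed an adjusted p of 0.05 in edgeR's quasi-likelihood test, and neither did any other gene, so that 0% of the 17499 genes tested were called. At an unadjusted p under 0.05 the 6 libraries gave 14.4% of all genes, lower in 9.17%, and 4 of the 10 genes, namely H2-K1, H2-Q7, Tap1 and Nlrc5, all lower. Without the library labelled WT 23, 9 of the 10 genes were lower and 1 was higher in Atg5 CD11cKO cells at an adjusted p under 0.05, where 15.1% of the 18241 genes tested were lower and 15.9% were higher. In the same 5 libraries every Atg5 CD11cKO library was below WT 21 and WT 22 for those 9 genes and above them for Tapbp, patterns found in 28.1% and 27% of the genes tested. Among the 1966 tested genes with a mean level of at least 99.6 CPM, that of Nlrc5, the lowest of the 10 genes, 26.7% were lower and 38.5% higher. The median log2 fold change of the 10 genes was -0.23 when every library was used and -0.34 without the one labelled WT 23, beside medians of -0.01 over all genes tested in each comparison. In these bulk libraries, fewer cells of a type and less RNA per cell cannot be told apart.

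**Figure D1:**
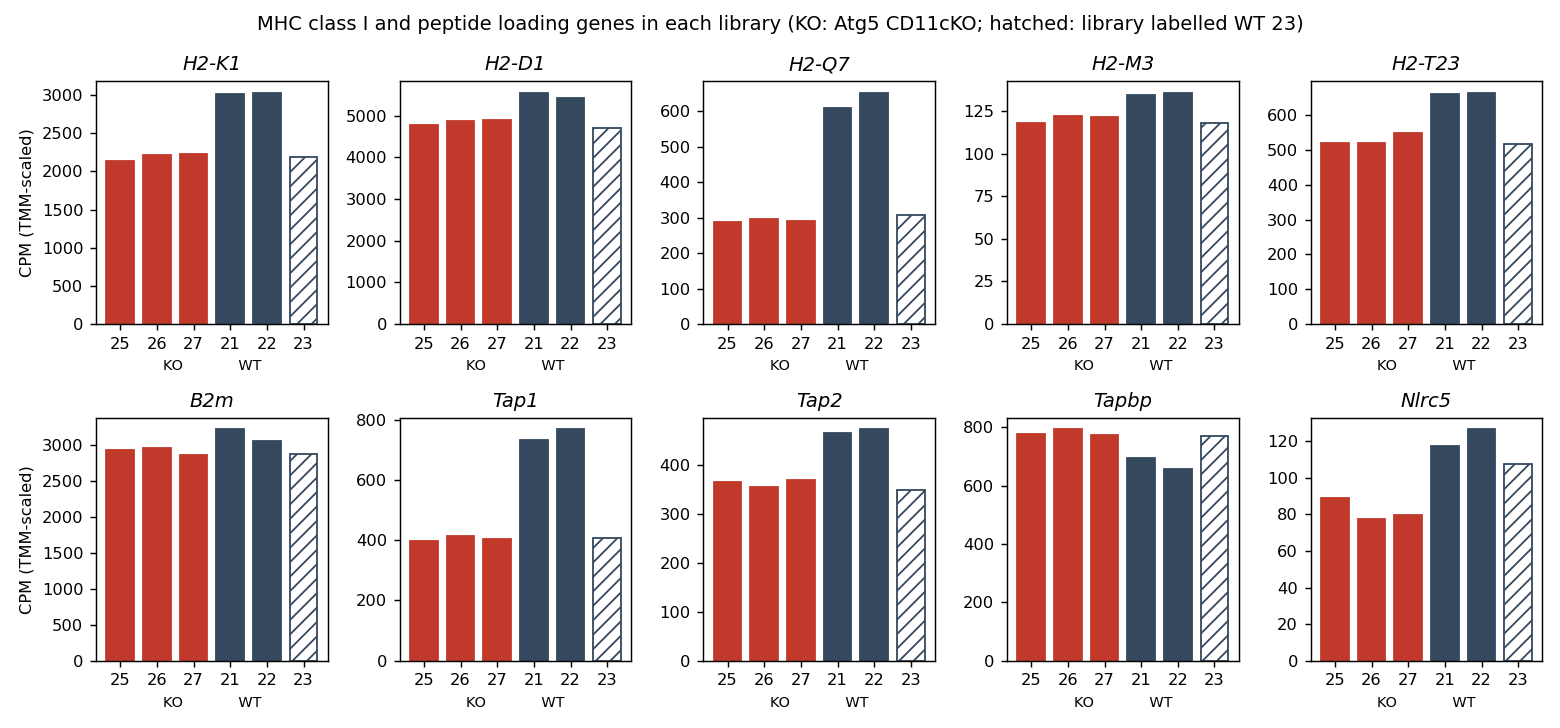
Level of each of the 10 genes in each library, in TMM-scaled CPM on linear axes from 0, with the Atg5 CD11cKO libraries 25, 26 and 27 in red, WT 21 and WT 22 in dark blue and the library labelled WT 23 hatched. WT 21 and WT 22 stand above the Atg5 CD11cKO libraries in 9 panels and below them in the Tapbp panel, and the hatched bar is near the red bars in all panels but that of Nlrc5.

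H2-K1 and H2-D1 encode the classical heavy chains, which present peptides to CD8+ T cells. H2-K1 had 2139, 2209 and 2225 CPM in Atg5 CD11cKO 25, 26 and 27, against 3019, 3032 and 2187 CPM in WT 21, 22 and 23. The Atg5 CD11cKO libraries were all below WT 21 and WT 22 and overlapped with the library labelled WT 23. Against WT 21 and WT 22 H2-K1 fell by 0.46 on the log2 scale (SE 0.0214, adjusted p = 2.14e-08, edgeR), a level 27.3% lower, and with all 6 libraries its log2 fold change was -0.33 (SE 0.127, adjusted p = 0.345). H2-D1 had 4784, 4884 and 4906 CPM in Atg5 CD11cKO 25, 26 and 27, against 5557, 5437 and 4700 CPM in WT 21, 22 and 23. The library labelled WT 23 was the lowest of all 6 for H2-D1. H2-D1 fell by 0.17 on the log2 scale (SE 0.0171, adjusted p = 1.41e-05) against WT 21 and WT 22, and with all 6 libraries its log2 fold change was -0.11 (SE 0.0763, adjusted p = 0.491). The classical genes thus differed in size of change, and the ratio of H2-D1 to H2-K1, each in CPM per kilobase of exon, was 2.55, 2.52 and 2.51 in Atg5 CD11cKO 25, 26 and 27, against 2.10, 2.04 and 2.45 in WT 21, 22 and 23. This ratio was higher in every Atg5 CD11cKO library than in any WT library, given without a test.

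H2-Q7 encodes a heavy chain of the Qa-2 antigen, a nonclassical class I molecule held in the membrane by a lipid anchor. It had 289, 296 and 289 CPM in Atg5 CD11cKO 25, 26 and 27, against 608, 653 and 307 CPM in WT 21, 22 and 23. All Atg5 CD11cKO libraries were below all WT libraries, a gap that was narrow for the library labelled WT 23 and wide for the other two. Against WT 21 and WT 22 H2-Q7 fell by 1.11 on the log2 scale (SE 0.0384, adjusted p = 1.56e-09), a level 53.6% lower and the largest change among the 10 genes. With all 6 libraries its log2 fold change was -0.84 (SE 0.256, adjusted p = 0.338), and DESeq2 on the same libraries gave an adjusted p of 0.0484. Over all 6 libraries as labelled, H2-Q7 and Nlrc5 were the genes among the 10 with every Atg5 CD11cKO library below every WT library, a pattern found in 8.71% of all genes tested.

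H2-T23 encodes Qa-1, which shows leader peptides of other class I chains to the CD94 and NKG2A receptor, and H2-M3 encodes a heavy chain that presents peptides starting with formylated methionine. H2-T23 had 519, 520 and 548 CPM in Atg5 CD11cKO 25, 26 and 27, against 661, 665 and 516 CPM in WT 21, 22 and 23. It fell by 0.32 on the log2 scale against WT 21 and WT 22 (SE 0.0337, adjusted p = 2.35e-05), and with all 6 libraries its log2 fold change was -0.21 (SE 0.112, adjusted p = 0.376). The library labelled WT 23 was again the lowest of the 6. H2-M3 had 118, 122 and 122 CPM in Atg5 CD11cKO 25, 26 and 27, against 135, 136 and 118 CPM in WT 21, 22 and 23. Its log2 fold change against WT 21 and WT 22 was -0.16 (SE 0.0515, adjusted p = 0.0350), and with all 6 libraries -0.10 (SE 0.0845, adjusted p = 0.544). The H2-M3 call was the least stable of the 10, since it was lost when any of the remaining 5 libraries was left out (adjusted p of 0.0701 to 0.119), with library totals in place of TMM (0.0504) and with no filter on low counts (0.0673).

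B2m encodes the light chain shared by all of these heavy chains. B2m had 2921, 2956 and 2862 CPM in Atg5 CD11cKO 25, 26 and 27, against 3214, 3056 and 2877 CPM in WT 21, 22 and 23. Its difference was the smallest of the 10, with a log2 fold change of -0.10 against WT 21 and WT 22 (SE 0.0239, adjusted p = 0.00802) and of -0.07 with all 6 libraries (SE 0.0662, adjusted p = 0.62). The B2m call was lost without WT 21 (adjusted p = 0.0852) and without Atg5 CD11cKO 27 (adjusted p = 0.0590). The sum of H2-K1 and H2-D1 over B2m, each in CPM per kilobase, was 0.760, 0.770 and 0.799 in Atg5 CD11cKO 25, 26 and 27, against 0.852, 0.884 and 0.767 in WT 21, 22 and 23. The transcripts of the classical heavy chains were thus lower relative to the light chain transcript in the Atg5 CD11cKO libraries than in WT 21 and WT 22, and the library labelled WT 23 lay among the Atg5 CD11cKO libraries.

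Tap1 and Tap2 encode the subunits of the transporter that carries peptides from the cytosol into the endoplasmic reticulum. Tap1 had 399, 413 and 404 CPM in Atg5 CD11cKO 25, 26 and 27, against 734, 768 and 406 CPM in WT 21, 22 and 23. Against WT 21 and WT 22 Tap1 fell by 0.88 on the log2 scale (SE 0.0339, adjusted p = 3.82e-09), a level 45.8% lower, and with all 6 libraries its log2 fold change was -0.65 (SE 0.221, adjusted p = 0.338). Tap1 in the library labelled WT 23 was inside the range of the Atg5 CD11cKO libraries. Tap2 had 367, 355 and 370 CPM in Atg5 CD11cKO 25, 26 and 27, against 466, 474 and 350 CPM in WT 21, 22 and 23. Tap2 fell by 0.36 on the log2 scale against WT 21 and WT 22 (SE 0.0350, adjusted p = 1.09e-05), and with all 6 libraries its log2 fold change was -0.24 (SE 0.124, adjusted p = 0.373). The subunits, whose proteins pair, thus differed in how far their transcripts were lower. The ratio of Tap1 to Tap2 in CPM per kilobase was 0.751, 0.804 and 0.755 in Atg5 CD11cKO 25, 26 and 27, against 1.09, 1.12 and 0.800 in WT 21, 22 and 23.

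Tapbp, which encodes tapasin, was the only gene of the 10 that was higher in Atg5 CD11cKO cells. It had 776, 793 and 774 CPM in Atg5 CD11cKO 25, 26 and 27, against 696, 658 and 772 CPM in WT 21, 22 and 23. Every Atg5 CD11cKO library was above every WT library, as in 9.59% of all genes tested, though by a margin of less than the spread of the Atg5 CD11cKO libraries for the library labelled WT 23. Tapbp rose by 0.21 on the log2 scale against WT 21 and WT 22 (SE 0.0325, adjusted p = 4.32e-04), and with all 6 libraries its log2 fold change was 0.14 (SE 0.0825, adjusted p = 0.414). The ratio of Tapbp to Tap1 in CPM per kilobase was 2.94, 2.90 and 2.89 in Atg5 CD11cKO 25, 26 and 27, against 1.43, 1.29 and 2.87 in WT 21, 22 and 23. Relative to the Tap1 transcript, the tapasin transcript was therefore 2.14 times as high in the Atg5 CD11cKO libraries as in WT 21 and WT 22. Tap2 fell less than Tap1 against WT 21 and WT 22, with log2 fold changes of -0.36 and -0.88. The value of 2.14 thus does not hold for the ratio of Tapbp to Tap2.

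Nlrc5 encodes the transactivator of class I genes and was the least abundant of the 10. Nlrc5 had 89.0, 77.7 and 79.5 CPM in Atg5 CD11cKO 25, 26 and 27, against 118, 126 and 108 CPM in WT 21, 22 and 23. All Atg5 CD11cKO libraries were below all WT libraries, the library labelled WT 23 included. Against WT 21 and WT 22 Nlrc5 fell by 0.57 on the log2 scale (SE 0.0714, adjusted p = 9.90e-05), a level 32.5% lower. With all 6 libraries its log2 fold change was -0.51 (SE 0.0955), with an unadjusted p of 0.000857 that was 0.338 after adjustment over all genes, and DESeq2 gave an adjusted p of 0.00671. By that tool, 2 of the 10 genes, Nlrc5 and H2-Q7, were lower and none was higher with all 6 libraries, where 1.97% of the 15452 genes with an adjusted p were lower and 0.239% higher.

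**Figure D2:**
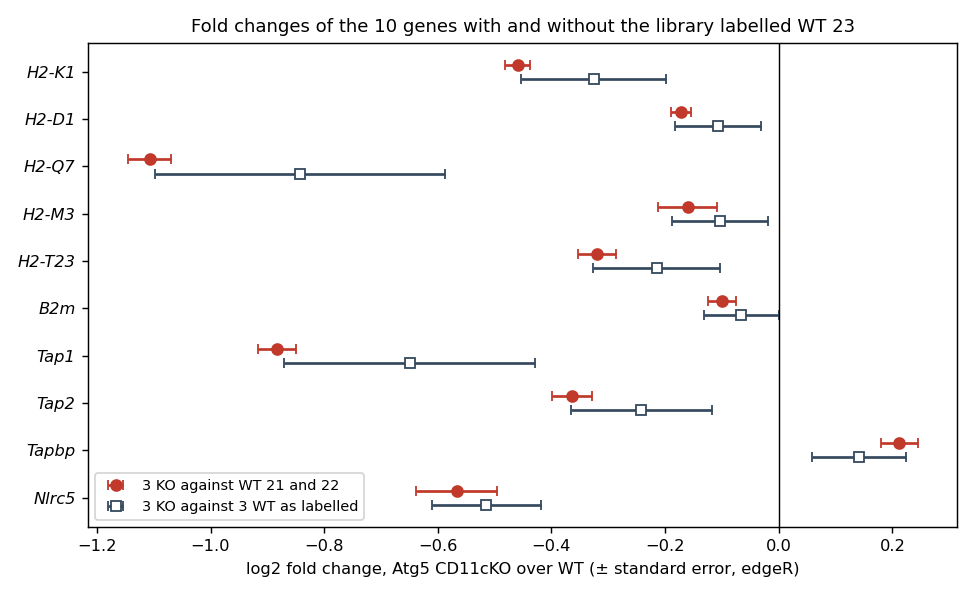
Log2 fold change of each of the 10 genes, Atg5 CD11cKO over WT, with bars of 1 standard error from edgeR. Filled circles compare the 3 Atg5 CD11cKO libraries with WT 21 and WT 22, and open squares with all 3 WT libraries as labelled. H2-Q7 and Tap1 lie farthest below 0, Tapbp lies above it, and the bars of the open squares are wider for every gene.

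The 10 genes differed in where the library labelled WT 23 lay. On a log2(CPM + 1) scale on which the mean of the Atg5 CD11cKO libraries is 0% and the mean of WT 21 and WT 22 is 100%, it lay at -0.616% for H2-K1, 0.247% for Tap1, 6.50% for H2-Q7 and 8.65% for Tapbp. It lay below 0% for H2-D1, H2-M3, H2-T23, B2m and Tap2, with the lowest value in H2-D1 at -26.7%. Nlrc5 was the exception at 68.4%, closer to WT 21 and WT 22. Over the 5655 genes called without this library the median position was 2.90%, with the middle 50% between -10.7% and 19.9%, and 5.87% of these genes lay above 50%. The position of Nlrc5 is a single value and was not tested.

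**Figure D3:**
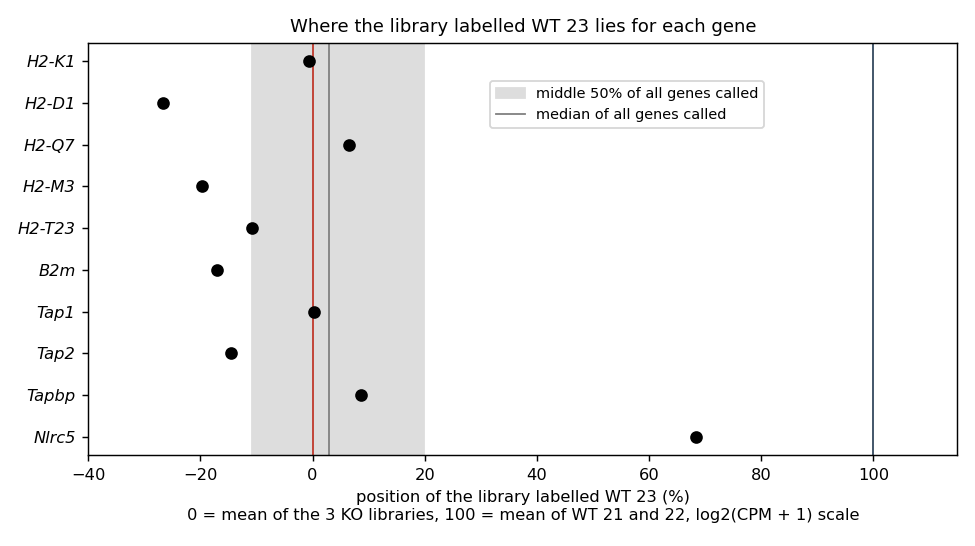
Position of the library labelled WT 23 for each of the 10 genes, in percent of the way from the mean of the 3 Atg5 CD11cKO libraries (0, red line) to the mean of WT 21 and WT 22 (100, dark blue line). The grey band holds the middle 50% of the 5655 genes called without this library. Nlrc5 is at 68.4% and the other 9 genes are between -26.7% and 8.65%.

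Levels were compared between genes per kilobase of exon, where the exon length is that of all annotated transcripts together and understates the level of a gene with long rare exons. In Atg5 CD11cKO libraries the order of the mean levels in CPM per kilobase was B2m at 3387, H2-D1 at 1884, H2-K1 at 746, Tapbp at 215, H2-T23 at 183, Tap2 at 96.2, H2-M3 at 83.9, Tap1 at 74.0, H2-Q7 at 68.3 and Nlrc5 at 9.66. In WT 21 and WT 22 it was B2m at 3645, H2-D1 at 2131, H2-K1 at 1030, H2-T23 at 229, Tapbp at 187, H2-Q7 at 148, Tap1 at 137, Tap2 at 124, H2-M3 at 94.2 and Nlrc5 at 14.4. H2-Q7 and Tap1 thus lay below Tap2 and H2-M3 in the Atg5 CD11cKO libraries and above both in WT 21 and WT 22. No neighbours in either order overlapped between libraries. With the library labelled WT 23 among the WT libraries, H2-T23 overlapped with Tapbp, and H2-Q7, Tap1 and Tap2 each overlapped with the gene after it. Together the 10 genes held 1.24%, 1.26% and 1.26% of all counts in Atg5 CD11cKO 25, 26 and 27, against 1.495%, 1.49% and 1.25% in WT 21, 22 and 23.

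Heavy chain genes are related in sequence. The share of each gene's transcript sequence that occurs, on either strand, in no other annotated gene was therefore measured in windows of 75 bases in GENCODE vM21. All windows of H2-M3 and B2m and 99.95% of those of Nlrc5 were found in no other gene. The share was 97.6% for Tap1, 96.9% for H2-K1, 94.4% for H2-D1, 94.1% for H2-T23 and 91.7% for Tap2. H2-Q7 had the most sequence in common with its family, with 83.0% of windows in no other gene and 8.88% in H2-Q10, so its count is uncertain where reads were divided between H2-Q genes. Summing the family does not depend on that division. The summed level of the H2-Q genes was 620.3, 626 and 619.8 CPM in Atg5 CD11cKO 25, 26 and 27, against 1342, 1440 and 653 CPM in WT 21, 22 and 23. The sum over 22 H2 class I heavy chain genes was 8550, 8728 and 8791 CPM in Atg5 CD11cKO 25, 26 and 27, against 10964, 10955 and 8545 CPM in WT 21, 22 and 23, and its mean was 20.7% lower in Atg5 CD11cKO than in WT 21 and WT 22.

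**Figure D4:**
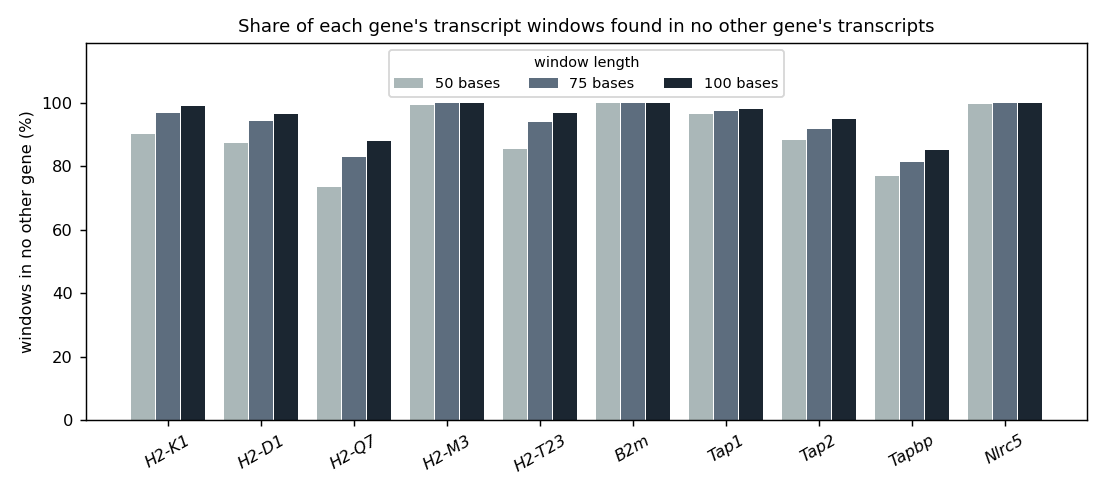
Share of each gene's transcript windows of 50, 75 and 100 bases that occur in no other gene's transcripts, in percent, for the 10 genes. At 75 bases, H2-M3 and B2m reach 100%, and Tapbp and H2-Q7 have the lowest shares, 81.4% and 83.0%.

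Some exons also overlap with other genes, and no source used here gives the use of strand in counting, so such reads cannot be told apart. Tapbp shares 904 exon bases, 24.9% of its exon length, with the antisense gene Gm19412, whose own level was 1.23 to 2.22 CPM in Atg5 CD11cKO libraries and 1.07 to 1.92 CPM in WT libraries. Tapbp also shares 149 exon bases, 4.11% of its exon length, with Zbtb22 on the same strand. Zbtb22 was at 16.1 to 21.1 CPM in Atg5 CD11cKO libraries and 17.2 to 22.2 CPM in WT libraries. Tap1 shares 212 exon bases with Psmb9 on the opposite strand, a gene that was itself lower in Atg5 CD11cKO cells. Tap2 shares 533 and 165 exon bases with Gm15821 and Gm20496, which were at no more than 4.40 CPM in any library.

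Other genes of the class I pathway were grouped in 6 lists. Without the library labelled WT 23, 15.9% of all genes tested were higher and 15.1% lower in Atg5 CD11cKO cells, and 38.5% and 26.7% of those at or above the level of Nlrc5, so a list with shares near these does not stand apart from other genes. With all 6 libraries as labelled, edgeR called no gene of these lists, with adjusted p-values of 0.338 or more, while DESeq2 called 4 lower and none higher, namely H2-Q6, H2-Q10, Cd8b1 and Klra5 (adjusted p = 0.0381, 0.0328, 0.0474 and 0.0364).

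Among the other class I heavy chain genes, 22 of 25 listed were in the table and 20 were tested without the library labelled WT 23, of which 3 were higher and 8 lower in Atg5 CD11cKO cells. The list's median log2 fold change was -0.58, and -0.42 over the 18 genes tested with all 6 libraries. H2-Q10 fell by 1.52 on the log2 scale (SE 0.0882, adjusted p = 1.45e-07), H2-Q6 by 1.25 (SE 0.0409, adjusted p = 9.03e-10) and H2-Q5 by 0.94 (SE 0.0713, adjusted p = 1.42e-06). Their log2 fold changes with all 6 libraries were -1.18, -0.96 and -0.71. H2-M2, a nonclassical heavy chain gene, had 204, 203 and 202 CPM in Atg5 CD11cKO 25, 26 and 27, against 48.2, 43.4 and 201 CPM in WT 21, 22 and 23, a log2 fold change of 2.15 without the library labelled WT 23 (SE 0.0611, adjusted p = 2.46e-10) and of 1.06 with it (SE 0.554, adjusted p = 0.378). No window of H2-M2 at 75 bases occurred in another gene. For H2-Q6 and H2-Q10, 78.9% and 87.5% of such windows were in no other gene, and both shared the most windows with H2-Q7. Their counts are thus uncertain in the same way as that of H2-Q7. Hfe, which regulates iron uptake, and H2-K2 rose by 0.28 and 0.34 on the log2 scale (adjusted p = 0.00179 and 0.00761), and their log2 fold changes with all 6 libraries were 0.20 and 0.19.

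The next list holds chaperones and peptide trimming enzymes of the endoplasmic reticulum. Of its 12 genes 4 were higher and 2 lower without the library labelled WT 23, and the list's median log2 fold change was 0.08, and 0.03 with all 6 libraries. Calreticulin (Calr) rose by 0.62 on the log2 scale (SE 0.0291, adjusted p = 2.27e-08), calnexin (Canx) by 0.53 (SE 0.0423, adjusted p = 2.32e-06) and the disulfide isomerase ERp57 (Pdia3) by 0.36 (SE 0.0262, adjusted p = 9.94e-07). The translocon subunit Sec61a1 fell by 0.31 (SE 0.0385, adjusted p = 8.42e-05), and Tapbpl, a relative of tapasin that edits peptides, had a log2 fold change of -0.18 with an adjusted p of 0.0498. The log2 fold changes of Calr, Canx and Pdia3 with all 6 libraries were 0.38, 0.31 and 0.23, and those of Sec61a1 and Tapbpl -0.23 and -0.08.

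Of 10 proteasome genes that supply class I peptides, 1 was higher and 4 were lower, with a median log2 fold change of -0.11, and of -0.07 with all 6 libraries. The immunoproteasome subunits Psmb9 and Psmb8 fell by 0.55 and 0.30 on the log2 scale (adjusted p = 2.62e-06 and 1.19e-05), the proteasome activator subunit Psme1 fell by 0.44 (adjusted p = 5.42e-06), and the constitutive subunit Psmb6 rose by 0.17 (adjusted p = 0.0326). Psmb9 had 262, 278 and 271 CPM in Atg5 CD11cKO 25, 26 and 27, against 412, 382 and 275 CPM in WT 21, 22 and 23. The log2 fold changes of Psmb9, Psmb8, Psme1 and Psmb6 with all 6 libraries were -0.40, -0.19, -0.32 and 0.11. Psmb9 lies next to Tap1 on the opposite strand, and the starts of the genes overlap as described above.

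Among 20 regulators of class I transcription 7 were higher and 4 lower, with a median log2 fold change of 0.12, and of 0.10 with all 6 libraries. The interferon regulatory factor Irf8 and the interferon signal transducer Stat2 fell by 0.45 and 0.44 on the log2 scale (adjusted p = 9.19e-09 and 3.67e-05). The NF-kappaB subunit genes Relb and Nfkb1 rose by 0.56 and 0.23 (adjusted p = 1.36e-05 and 0.00719), and Creb1, whose family binds the X2 box, rose by 0.47 (adjusted p = 0.00326). The log2 fold changes of Irf8 and Stat2 with all 6 libraries were -0.31 and -0.32, and those of Relb, Nfkb1 and Creb1 0.40, 0.14 and 0.28.

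Of 12 interferon ligand, receptor and signalling genes 11 were in the table, 2 were higher and 4 lower, with a median log2 fold change of -0.14, and of -0.12 with all 6 libraries. The receptor chains for interferon gamma went opposite ways, Ifngr1 falling by 0.60 on the log2 scale (adjusted p = 2.01e-08) and Ifngr2 rising by 0.83 (adjusted p = 3.07e-06). The kinase gene Jak2 fell by 0.50 (adjusted p = 6.62e-05) and Ifng by 0.97 (adjusted p = 1.70e-04), while Socs3, an inhibitor of cytokine signalling, rose by 0.18 (adjusted p = 0.0150). The log2 fold changes of Ifngr1, Ifngr2, Jak2, Ifng and Socs3 with all 6 libraries were -0.43, 0.51, -0.37, -0.70 and 0.09. Ifng was at 12.3, 11.05 and 11.1 CPM in Atg5 CD11cKO 25, 26 and 27, against 23.0, 22.1 and 10.7 CPM in WT 21, 22 and 23.

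Of 20 genes listed as receptors of class I molecules or relatives of such receptors, 17 were in the table, 5 were higher and 10 lower. The list's median log2 fold change was -0.49, and -0.34 with all 6 libraries. A place on the list does not show that a receptor binds class I. The CD8 co-receptor genes Cd8a and Cd8b1 fell by 1.144 and 1.42 on the log2 scale (adjusted p = 2.50e-06 and 9.56e-06), and Klrk1, the activating receptor NKG2D, fell by 0.64 (adjusted p = 5.68e-07). The inhibitory myeloid receptors Lilrb4a and Pirb rose by 0.46 and 0.31 (adjusted p = 1.61e-06 and 5.03e-05), and the related Lilr4b rose by 0.26 (adjusted p = 1.62e-04). The log2 fold changes of Cd8a, Cd8b1 and Klrk1 with all 6 libraries were -0.86, -1.10 and -0.46, and those of Lilrb4a, Pirb and Lilr4b 0.26, 0.20 and 0.08.

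**Figure D5:**
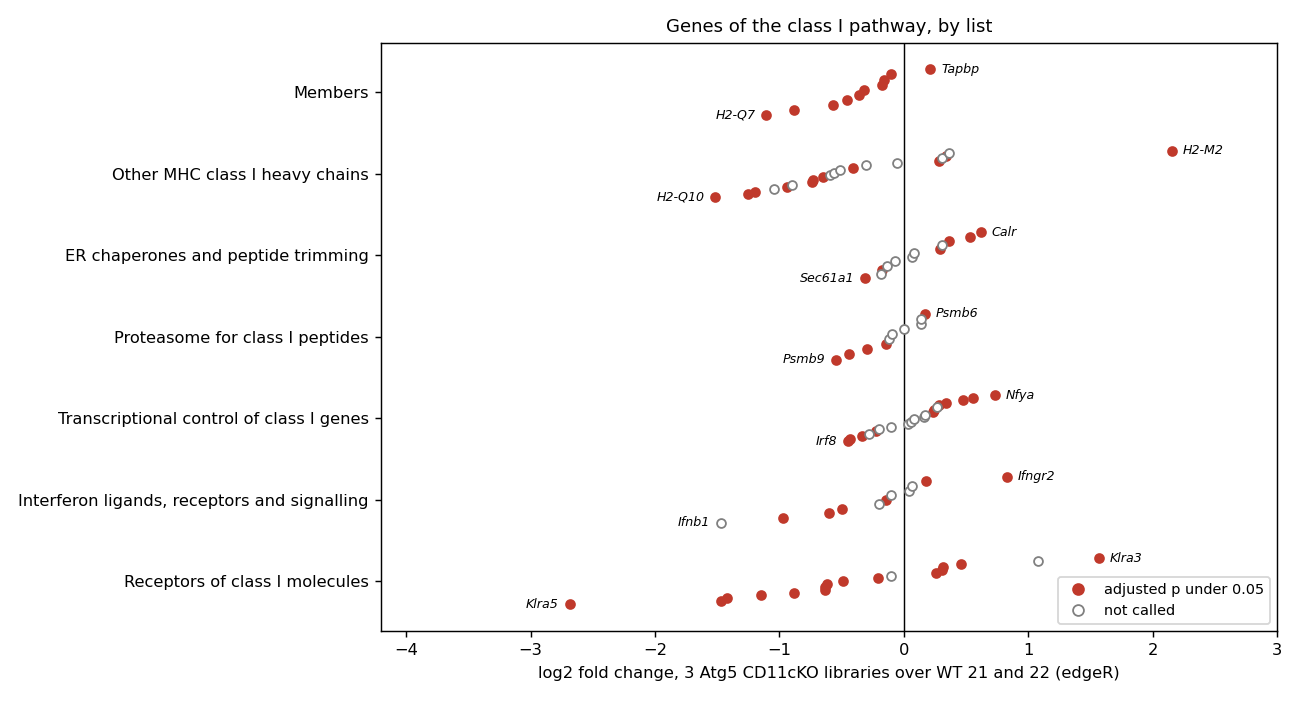
Log2 fold change of each tested gene, 3 Atg5 CD11cKO libraries over WT 21 and WT 22, for the 10 genes (top row, Members) and 6 lists of the class I pathway. Filled points have an adjusted p under 0.05 in edgeR, open points do not, and the lowest and highest gene of each row is named. Of the 10 genes, 9 are filled and below 0, and H2-M2 stands apart at 2.15 among the other heavy chains.

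Markers of cell types also differed between the same libraries. With all 6 libraries as labelled edgeR called none of them, and DESeq2 called 10 of 10 pancreatic acinar markers lower, 2 each of the hepatocyte and plasmacytoid dendritic cell markers lower, 1 each of the conventional dendritic cell, monocyte, neutrophil, T cell and NK cell lists lower and 1 stellate cell marker higher. Plasmacytoid dendritic cell markers were lower in 6 of 6 genes without the library labelled WT 23, with a summed level of 703 to 712 CPM in Atg5 CD11cKO libraries against 1716 to 1744 CPM in WT 21 and WT 22. Kupffer cell markers were lower in 5 of 5 (641 to 660 against 1270 to 1283 CPM), NK cell and ILC1 markers in 5 of 6 (286 to 299.9 against 1171 to 1207 CPM), T cell markers in 5 of 6 (138 to 145 against 312 to 321 CPM) and neutrophil markers in 3 of 5 (22.4 to 26.4 against 65.0 to 65.3 CPM). Of 6 conventional dendritic cell markers 2 were higher and 4 lower (845 to 853 against 1250 to 1321 CPM).

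Markers of other myeloid cells were higher in Atg5 CD11cKO cells. Lipid-associated macrophage markers were higher in 6 of 6 genes (2898 to 2912 CPM in Atg5 CD11cKO libraries against 464 to 472 CPM in WT 21 and WT 22), macrophage markers in 5 of 5 (2744 to 2903 against 1310 to 1334 CPM), mature dendritic cell markers in 4 of 4 (3174 to 3215 against 2155 to 2191 CPM) and monocyte markers in 2 of 4, with 1 lower (829 to 922 against 623 to 638 CPM). Of 6 sinusoidal endothelial markers 3 were higher and 1 lower (168 to 190 against 153 to 160 CPM), of 6 stellate cell markers 1 was higher (12.4 to 17.2 against 6.94 to 7.10 CPM), and of 5 B cell markers none was called (38.3 to 41.5 against 41.5 to 44.6 CPM). Genes of CD11c+ cells of any kind were higher in 3 of 4 (50987 to 52928 against 48287 to 49085 CPM).

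Markers of 2 epithelial cell types that the CD11c beads should leave behind were lower in Atg5 CD11cKO libraries. Hepatocyte markers were lower in 10 of 10 genes (260 to 272 CPM against 1434 to 1438 CPM in WT 21 and WT 22), and pancreatic acinar markers in 10 of 10 (377 to 386 against 18959 to 19207 CPM). The library labelled WT 23 had 260 CPM of hepatocyte and 363 CPM of acinar markers, and for the plasmacytoid, macrophage and lipid-associated macrophage lists it had 718, 2807 and 2930 CPM. Its summed levels were 611 CPM for the Kupffer cell list, 285 for the NK cell and ILC1 list, 133 for the T cell list, 22.8 for the neutrophil list, 851 for the conventional and 3175 for the mature dendritic cell list, and 879 for the monocyte list. Apart from Vcan, no marker of these lists was at 0 in any library. The part of these cell types in the class I differences was not tested. Leaving acinar and hepatocyte markers out of the TMM normalization changed no call among the 10 genes.

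Across the 6 libraries 8 of the 10 genes followed the gap between WT 21 and WT 22 and the other 4 libraries, Tapbp ran inversely to it, and Nlrc5 followed it less closely. Pearson's r over 6 libraries between log2(CPM + 1) of a gene and the mean of the other 9 was 0.998 for H2-Q7, 0.997 for Tap1, 0.995 for H2-K1, 0.980 for Tap2, 0.977 for H2-T23, 0.963 for H2-M3, 0.955 for H2-D1, 0.872 for B2m, 0.799 for Nlrc5 and -0.973 for Tapbp. The libraries fall into 2 clusters, so these values describe the gap and carry no p. Among 2433 other genes with a mean of at least 20 CPM and at least as much spread, the 5 most alike to the mean profile were the interferon-induced genes Irf7 and Ifi205, the sulfotransferase gene Sult1a1, the iron exporter gene Slc40a1 and H2-Q6, and 241 of the 2433 had an r above 0.99. Irf7 had 190.4, 191 and 188 CPM in Atg5 CD11cKO 25, 26 and 27, against 307, 315 and 195 CPM in WT 21, 22 and 23.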

How the data were processed

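RNA-seq was analysed for 6 libraries of hepatic CD11c+ cells, 3 labelled Atg5 CD11cKO and 3 labelled WT. The authors prepared libraries from 10 ng of total RNA, and per the labels and methods demultiplexed with bcl2fastq 2.17.1.14, aligned to mm10 with STAR 2.5.3a and analysed with Partek software. No source used here gives the counting step, annotation version or strand use. Their deposited estimated counts per gene (32.9% of values whole within 1e-06) were rounded before testing. The deposited normalized signal equalled the count plus 1 times a constant of each library, and served for an alternative test. Gene symbols turned into dates (25) were restored.

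Genes were filtered (filterByExpr), scaled by TMM and tested with edgeR 4.0.16 (R 4.3.3), with Benjamini-Hochberg adjustment over all genes tested and a threshold of 0.05, with and without the library labelled WT 23, and the script was tested on simulated data. Alternatives used DESeq2 1.42.0, limma 3.58.1, other scalings and filters, pseudocounts of 1 and 0.1 on the normalized signal, and each library left out. Window and promoter searches used exact letters.

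The 10 genes, the pathway and marker lists and the removal of the library labelled WT 23 were chosen with earlier results of these data known. All 10 genes were named, and from each pathway list up to 3 genes called each way by adjusted p, except for a result that is not reported here. Protein identity was not computed here.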

Additional observations from a re-analysis of the deposited data

How the results depend on the processing

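With all 6 libraries as labelled, 0 of the 10 genes and 0 genes in all were called by edgeR, and DESeq2 called 2 of the 10 lower, with 305 genes lower and 37 higher in all, while limma called 0 of the 10. Leaving out each library in turn gave 0 to 9 of the 10 genes lower and 0 to 1 higher, 0 to 2755 genes lower and 0 to 2900 higher, and a median log2 fold change of the 10 genes between -0.34 and -0.16 over all alternatives. The highest counts and the lowest median came without the library labelled WT 23. The receptor gene Lilr4b had a log2 fold change of -0.0074 without WT 21, the lowest of a range that reached 0.26 without the library labelled WT 23, and 0.08 with all 6 libraries. Without the library labelled WT 23, 7 to 9 of the 10 genes were lower and 1 was higher under 14 alternatives, and the median lay between -0.36 and -0.33. The calls lost were those of H2-M3 (7 alternatives) and B2m (2 alternatives), and the other 8 genes kept theirs. With 1 WT library left, the spread came from the Atg5 CD11cKO libraries. No paired analysis was possible because the WT and Atg5 CD11cKO libraries share no replicate number. Counts of 77.7 CPM or more in every library leave sampling noise small for all 10 genes. Their standard errors were larger with the library labelled WT 23 than without it, 0.256 against 0.0384 for H2-Q7.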
